A study of Homo sapiens with 16 samples.

Results

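The 10 genes described here, ROR1, SPTAN1, PRAG1, JUP, CLEC2B, SERPINF1, EYA1, PAPPA2, PEG10 and F2R, were taken from 28443 genes measured in U2OS cells and were chosen by their counts in the DMSO libraries, in which earlier results had named them as different between genotypes. U2OS is a human osteosarcoma cell line. The study edited it with CRISPR/Cas9 to obtain isogenic cells that carry either wild-type MDM2 (WT) or the cancer-associated MDM2 W329G substitution, and sequenced poly-A RNA after 24 h in DMSO or in 50 µM 5-fluorouracil (5-FU). There are 2 lines per genotype (cells 1 and 2 in the labels). Both treatments of every line were sequenced in 2 experiments by different vendors, so that the 16 libraries fall into 4 groups of 4: WT DMSO, W329G DMSO, WT 5-FU and W329G 5-FU. Within a group, replicate 1 stands for cells 1 in experiment 1, replicate 2 for cells 2 in that experiment, and replicates 3 and 4 for the same lines in experiment 2. The labels do not say whether each line is a single clone or how many MDM2 alleles carry the change. A genotype comparison therefore rests on 2 lines against 2, and its p-values measure the spread between the sums made for these lines, which holds the spread between the lines only if the cell numbers mean the same lines in both experiments.

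MDM2 is the ubiquitin ligase that holds the tumour suppressor p53 at a low level. 5-FU, an antimetabolite, disturbs ribosome production, and ribosomal proteins that are then set free bind MDM2 and release p53, which turns on its target genes. The 10 genes do not form 1 pathway. ROR1 and F2R are receptors at the cell surface, and PRAG1 is a scaffold for signalling kinases. SPTAN1 and JUP belong to the membrane skeleton and to cell junctions, CLEC2B is a surface lectin, SERPINF1 and PAPPA2 are secreted, EYA1 acts in transcription, and PEG10 is an imprinted gene derived from a retrotransposon.

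The reference sequence 5′ of the annotated start is shown for ROR1, SPTAN1 and PAPPA2. These are among the members with the widest genotype differences under DMSO, the treatment in which the members were chosen. They have 1 entry each in the RefSeq table of GRCh38.p14 that was used. Each run covers the 250 bases before the RefSeq start on the plus strand, 5′ to 3′, and the capitals mark CG dinucleotides, the sites of DNA methylation. The runs lie at chr1:63773767-63774016 (ROR1), chr9:128552337-128552586 (SPTAN1) and chr1:176462925-176463174 (PAPPA2). The RefSeq starts differ from the gene starts given below, so the last bases of the SPTAN1 and PAPPA2 runs lie within the genes as given there.
ROR1: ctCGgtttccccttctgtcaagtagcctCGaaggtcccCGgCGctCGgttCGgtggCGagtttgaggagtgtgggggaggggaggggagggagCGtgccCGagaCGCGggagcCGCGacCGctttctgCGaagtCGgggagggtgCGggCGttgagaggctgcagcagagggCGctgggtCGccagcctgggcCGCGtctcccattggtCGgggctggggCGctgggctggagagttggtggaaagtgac
SPTAN1: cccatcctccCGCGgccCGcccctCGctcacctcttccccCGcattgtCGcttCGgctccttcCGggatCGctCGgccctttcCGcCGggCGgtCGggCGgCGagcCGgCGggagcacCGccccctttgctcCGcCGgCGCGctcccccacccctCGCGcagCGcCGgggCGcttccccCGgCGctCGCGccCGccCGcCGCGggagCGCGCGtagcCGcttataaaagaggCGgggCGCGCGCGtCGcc
PAPPA2: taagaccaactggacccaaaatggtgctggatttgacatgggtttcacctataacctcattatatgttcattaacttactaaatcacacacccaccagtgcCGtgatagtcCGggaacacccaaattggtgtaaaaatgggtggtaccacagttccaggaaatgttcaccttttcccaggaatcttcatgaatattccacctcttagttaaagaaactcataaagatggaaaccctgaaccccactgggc
The SPTAN1 window holds 46 CG dinucleotides, and 99.67% of all 35116 promoter windows hold as many or fewer. The ROR1 window holds 24 and the PAPPA2 window 2, at 78.37% and 22.86% on the same scale. Motifs were searched on both strands, and those that overlap one another were all counted. TATAAA was found in the SPTAN1 window and in 10.7% of all windows, GGGCGG also in the SPTAN1 window and in 42.6% of all, and CCAAT in the ROR1 and PAPPA2 windows and in 32.0% of all. CANNTG was found in PAPPA2 among these 3 and in 61.8% of all windows. No window of these 3 held a match to the p53 element unit (5.57% of all windows) or to TGANTCA (6.57%). Methylation was not measured in these samples, and the matches are a description of the letters.

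The PEG10 messenger RNA is read in 2 frames, since ribosomes slip back by 1 base at a short slippery run, and 1 transcript thereby gives a short and a long protein. That run, in capitals, lies in the coding part of exon 2 of 2 at chr7:94664510-94664516, shown here within chr7:94664480-94664531 of GRCh38 on the plus strand.
PEG10: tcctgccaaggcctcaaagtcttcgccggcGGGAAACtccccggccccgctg
The counts of PEG10 below are of the transcript, and they do not tell the 2 products apart.

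The 16 libraries held 24715999 to 56877328 counts each. The share of mitochondrially encoded genes was 13.7 to 24.7% in the WT DMSO libraries, 7.16 to 22.06% in W329G DMSO, 17.71 to 31.91% in WT 5-FU and 8.0 to 26.09% in W329G 5-FU, and leaving them out kept the same 9 of the 10 genes called under 5-FU. All libraries had high COL1A1, SPARC, VIM and FN1, and the 10-gene mesenchymal and osteoblast list summed to 6286 to 15600 CPM (counts per 1000000 after TMM scaling). Other genes of that list were low in the mean, with COL1A2 at 2.18, ALPL at 2.11, BGLAP at 0.325 and TWIST1 at 0.0733 CPM. The mature osteoblast gene IBSP was at 0 in 15 libraries. The epithelial list summed to 11.45 to 151.8 CPM, the neural list to 26.26 to 203.4 CPM and the endothelial list to 1.752 to 13.03 CPM. The blood list summed to 1.025 to 131.3 CPM, with its high end, from LYZ, in experiment 1 of all 4 groups. Other markers split by experiment too. The epithelial gene CDH1 was at 3.387 to 9.763 CPM in experiment 1 and 0.02648 to 0.6882 CPM in experiment 2. The neural gene TUBB3 was at 12.43 to 37.73 CPM in experiment 1 and 87.98 to 194.8 CPM in experiment 2. The part of these differences in the results was not tested.

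All 10 genes passed the filter on low counts, with 49 (PAPPA2) to 9686 (SPTAN1) counts in a library. Per kb of exon, the WT DMSO levels ran from 13.15 ± 3.25 CPM per kb for SERPINF1, through JUP (10.15 ± 3.45), PRAG1 (10.05 ± 2.03), F2R (9.59 ± 4.32), ROR1 (7.30 ± 6.62), CLEC2B (5.32 ± 1.52) and PEG10 (5.17 ± 2.67), to SPTAN1 (1.93 ± 0.667), EYA1 (0.659 ± 0.110) and PAPPA2 (0.352 ± 0.330; SD, n = 4 each). Neighbours from SERPINF1 to PEG10 in this order lay within 1 SD of each other. In W329G DMSO cells CLEC2B stood first, at 18.69 ± 8.95 CPM per kb, and PEG10 last, at 1.24 ± 0.384 (SD, n = 4). Because bulk RNA was measured, fewer cells that express a gene and less RNA per cell cannot be told apart.

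**Figure D1:**
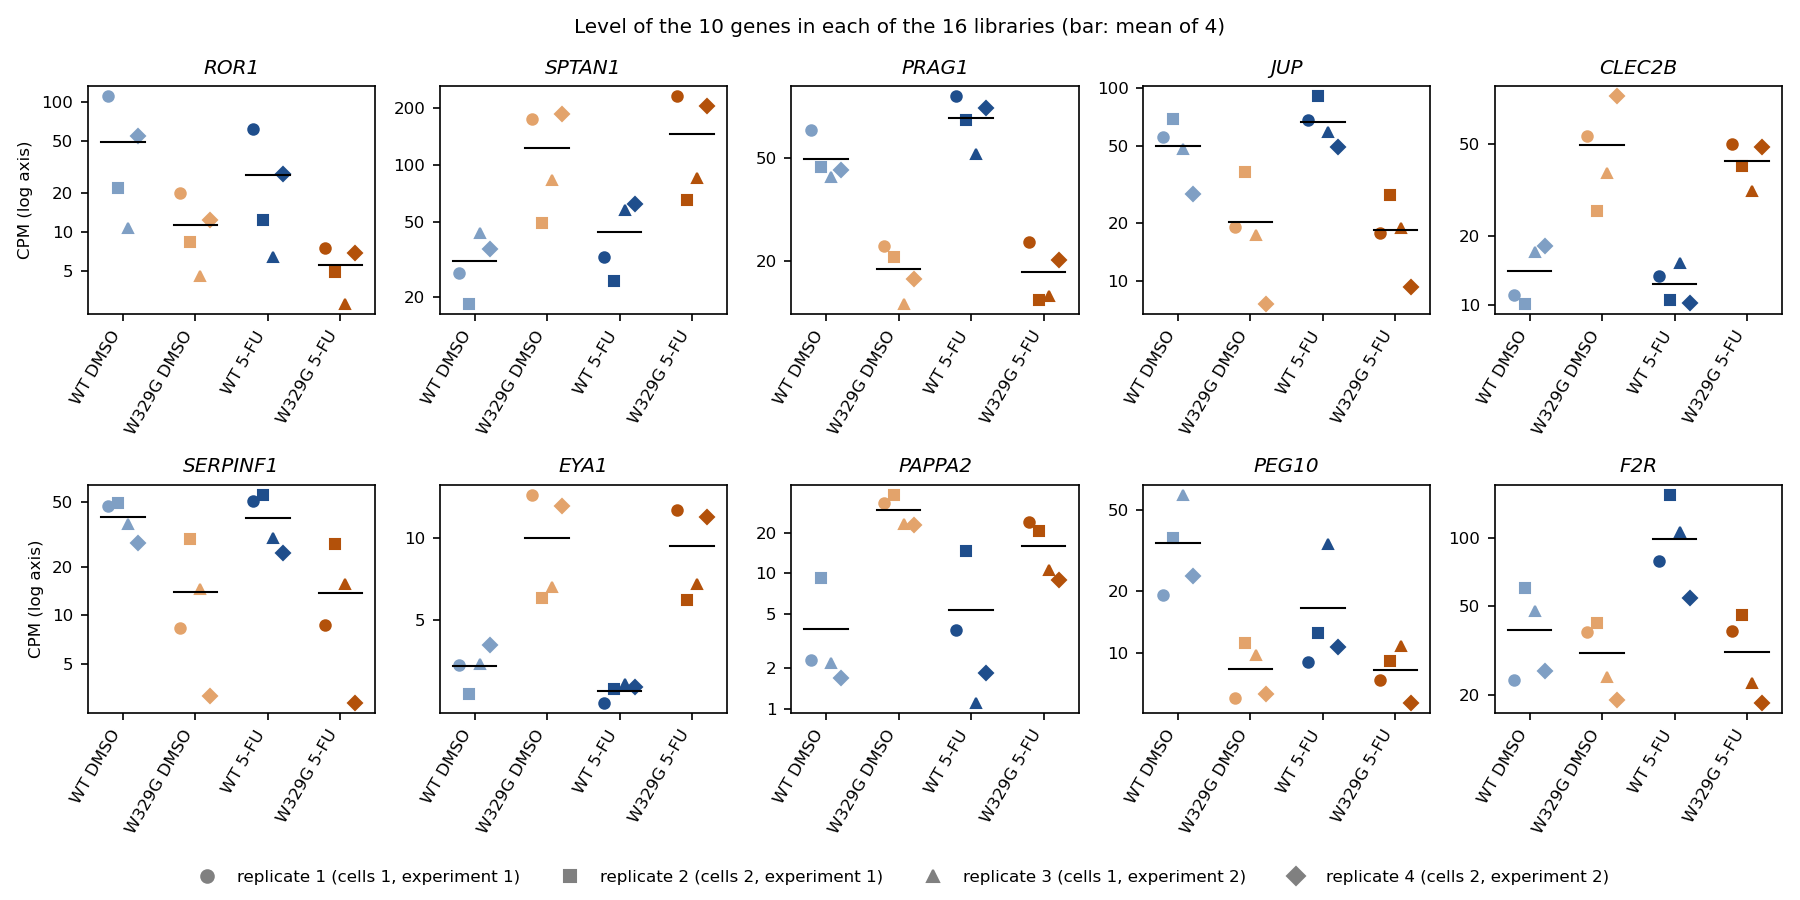
Level of each of the 10 genes in the 16 libraries, in CPM on a log axis, with 1 panel per gene, 1 column per group, marker shapes for the 4 replicates (cells 1 and 2 in experiments 1 and 2) and a bar at the mean of 4. Under 5-FU all 4 W329G libraries lay above all 4 WT libraries for SPTAN1, CLEC2B and EYA1, and below them for PRAG1, JUP and F2R.

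The DMSO libraries chose the genes, so their differences are given without a test. Under DMSO, 246 of 17335 genes passed the threshold on line sums (1.42%), among them 9 of the 10 (all but F2R), a count the choice itself set. The libraries of the 2 genotypes did not overlap for 6 of the 10, against 3.43% of all genes, from which likewise nothing is read. The 5-FU libraries come from the same 4 lines, while the stated choice was by the DMSO libraries. Since earlier results of these data were known, the 5-FU values may still have had a part in it. F2R in particular was not called under DMSO, so its 5-FU call cannot be taken as free of the choice. The 5-FU libraries show whether a difference was again present in other libraries, not in other lines. The p-values below do not rest on these libraries alone. The fit estimated the spread over the sums of all 4 groups, among them the DMSO sums that chose the genes. It also counted the DMSO and 5-FU sums of a line as separate. With counts of both experiments summed per line as labelled, 9 of the 10 genes differed under 5-FU: SPTAN1, CLEC2B, EYA1 and PAPPA2 were higher in W329G, and ROR1, PRAG1, JUP, SERPINF1 and F2R were lower (edgeR quasi-likelihood test, Benjamini-Hochberg adjusted p under 0.05 over 17335 genes). Of all genes, 14.4% were called in this comparison, 7.3% higher and 7.15% lower. The median difference of all genes was −0.01 on the log2 scale. The 4 and 4 libraries did not overlap for 6 of the 10, where 11.6% of all genes did not overlap.

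That count depends on which lines are summed. Cells 1 and cells 2 of a genotype differed in opposite directions in the 2 experiments for most of these genes, as described further on. With the cell numbers of experiment 2 exchanged before summing, PRAG1 alone of the 10 was called (adjusted p = 0.033; 1.28% of all genes called). The fold differences moved little: ROR1 was at −2.15 (adjusted p = 0.339), SPTAN1 at 1.59 (0.222), JUP at −1.84 (0.0667), CLEC2B at 1.75 (0.0618), SERPINF1 at −1.495 (0.342), EYA1 at 1.74 (0.115), PAPPA2 at 1.85 (0.128) and F2R at −1.66 (0.108) on the log2 scale in edgeR. If the numbers are exchanged, each sum as labelled holds counts of both lines, and the SEs and p-values printed below for those sums understate the spread between lines. The SE of ROR1 was 0.15 as labelled, 0.68 over the 16 libraries with the experiment as a term and 0.98 with the numbers exchanged, while its WT lines differed 5.09-fold and 5.07-fold within the experiments under DMSO. Experiment 1 alone called PRAG1, JUP and CLEC2B (2.64% of all genes called), and experiment 2 alone called PAPPA2 (0.189% of all genes). Which numbering is right was not tested.

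**Figure D2:**
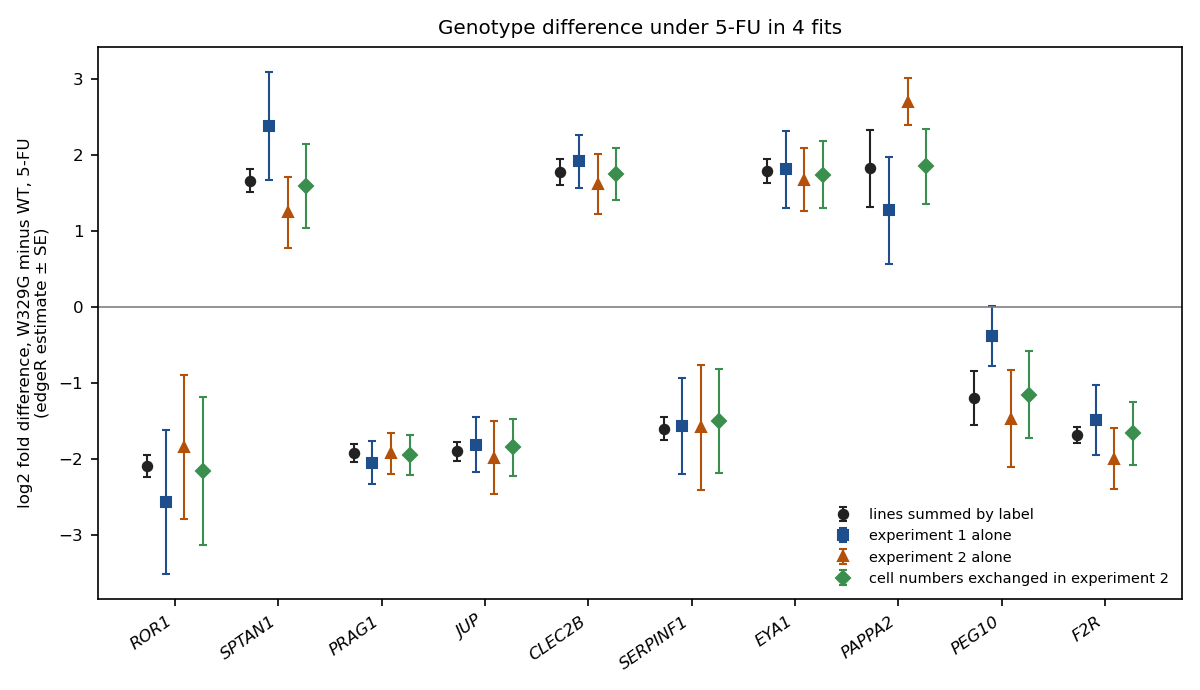
Fitted log2 fold difference of W329G minus WT under 5-FU for each gene, with the SE as error bars, for lines summed as labelled, for each experiment alone and with cell numbers exchanged in experiment 2. Every estimate keeps its sign across the 4 fits, while the SE of ROR1 grows from 0.15 as labelled to 0.98 with the numbers exchanged.

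ROR1 is a receptor tyrosine kinase-like protein that binds WNT5A and is known from embryos and several cancers. Under DMSO its levels were 109.7, 21.5, 10.6 and 54.1 CPM in WT replicates 1 to 4 and 19.8, 8.30, 4.53 and 12.4 CPM in W329G. WT replicates 1 and 4 were high, and WT replicate 3 lay within the range of W329G. Under 5-FU the WT libraries measured 61.6, 12.3, 6.44 and 27.95 CPM and the W329G libraries 7.48, 4.89, 2.80 and 6.88 CPM. The groups overlapped again in experiment 2, where the lower WT library lay between both W329G libraries. The mean was 4.91 times higher in WT, and the fitted difference of W329G from WT was −2.09 ± 0.15 on the log2 scale (SE; edgeR adjusted p = 0.000243). With the line as a random block in limma-voom it was −1.88 ± 0.74 and was not called (adjusted p = 0.105). The ROR1 locus, at chr1:63774022-64181498 on the plus strand (ENSG00000185483), also holds the antisense gene ROR1-AS1, whose counts came to 3.63% of those of ROR1.

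F2R encodes PAR1, the receptor that thrombin activates by cleavage. Its DMSO levels overlapped between genotypes, with 23.2, 59.7, 47.3 and 25.6 CPM in WT and 38.2, 41.97, 24.1 and 19.1 CPM in W329G. Among the 10 it was the gene with the smallest DMSO difference (−0.43 ± 0.10 log2). That difference was −0.05 ± 0.45 in experiment 1 alone, −0.76 ± 0.39 in experiment 2 alone and −0.33 ± 0.40 with the cell numbers exchanged. After 5-FU the WT libraries rose to 79.0, 155, 106.8 and 54.4 CPM, while the W329G libraries measured 38.5, 45.2, 22.7 and 18.5 CPM. Every treated WT library lay above every treated W329G library. The W329G level under 5-FU differed from WT by −1.68 ± 0.11 on the log2 scale (SE; edgeR adjusted p = 0.000224), 98.9 ± 43.3 CPM in WT against 31.2 ± 12.7 in W329G (SD, n = 4 each). F2R lies at chr5:76716043-76735781 on the plus strand (ENSG00000181104).

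PRAG1, also called pragmin, is a pseudokinase that binds the kinase CSK and works as a scaffold in Src-family signalling. WT cells had 64.0, 46.2, 42.2 and 44.8 CPM under DMSO and W329G cells 22.9, 20.6, 13.6 and 17.02 CPM. All W329G libraries were lower, and the spread within each group was small. With 5-FU the levels were 86.3, 69.7, 51.9 and 77.7 CPM in WT and 23.5, 14.1, 14.5 and 20.05 CPM in W329G, again without overlap. The difference was −1.91 ± 0.12 on the log2 scale (SE; edgeR adjusted p = 0.000224), a mean 3.96 times higher in WT. Of the 10 genes, PRAG1 was called in the most of the 14 alternative analyses, 13, and had an adjusted p of 0.0505 in the other one, experiment 2 alone. Its locus is chr8:8317736-8386498 on the minus strand (ENSG00000275342).

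SPTAN1 encodes the non-erythroid alpha spectrin chain, which pairs with beta spectrins to line the inner face of the plasma membrane. Its DMSO levels were 27.0, 18.6, 43.6 and 35.9 CPM in WT and 174, 49.6, 83.5 and 186 CPM in W329G. Replicates 1 and 4 were the high W329G libraries. With 5-FU, WT had 32.7, 24.4, 57.7 and 62.1 CPM and W329G 229, 65.2, 84.95 and 203 CPM. The lowest W329G library exceeded the highest WT library by little, although the means differed 3.30-fold. The fitted difference was 1.67 ± 0.15 on the log2 scale (SE; edgeR adjusted p = 0.000558), and it was 2.38 in experiment 1 alone (0.142). SPTAN1 spans chr9:128552558-128633662 on the plus strand (ENSG00000197694). The gene DYNC2I2 on the other strand, whose counts in experiment 1 came to 182.8% of those of SPTAN1, shares 2 exon bases with it in the GENCODE annotation, 0.0123% of SPTAN1's exon length.

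JUP encodes plakoglobin, the relative of beta-catenin that sits in desmosomes and adherens junctions. Under DMSO the values were 55.5, 69.1, 48.1 and 28.1 CPM in WT and 18.9, 36.8, 17.3 and 7.60 CPM in W329G. WT replicate 4 lay below W329G replicate 2, so that the groups overlapped, although they did not within either experiment. The 5-FU values were 68.1, 90.7, 58.9 and 49.7 CPM in WT and 17.6, 27.9, 18.7 and 9.23 CPM in W329G, with no overlap. The difference was −1.89 ± 0.13 on the log2 scale (SE; edgeR adjusted p = 0.000225), with a mean 3.65 times higher in WT. JUP lies at chr17:41754604-41786931 on the minus strand (ENSG00000173801).

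CLEC2B encodes the C-type lectin AICL, a ligand of the natural killer cell receptor NKp80, in the natural killer gene complex of chromosome 12. It measured 11.01, 10.2, 16.9 and 18.04 CPM in WT and 54.1, 25.6, 37.4 and 80.1 CPM in W329G under DMSO. All W329G libraries were above all WT libraries, with replicates 1 and 4 highest. Under 5-FU the WT values were 13.3, 10.5, 15.2 and 10.2 CPM and the W329G values 49.7, 40.0, 31.1 and 48.2 CPM. The distance between the genotypes stayed wide and the 2 W329G lines were closer together than in DMSO. The difference was 1.78 ± 0.17 on the log2 scale (SE; edgeR adjusted p = 0.000642). CLEC2B occupies chr12:9852984-9870136 on the minus strand (ENSG00000110852).

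SERPINF1 encodes PEDF, a secreted serpin that does not inhibit proteases and is known for blocking blood vessel growth and for its role in bone mineral. DMSO levels were 47.5, 49.4, 36.6 and 27.99 CPM in WT and 8.37, 29.7, 14.6 and 3.17 CPM in W329G. The W329G libraries spanned a range of 9.35-fold, with replicate 2 within the WT range. The 5-FU libraries repeated this, with 50.9, 55.3, 30.1 and 24.4 CPM in WT and 8.75, 27.5, 15.6 and 2.87 CPM in W329G. The difference was −1.60 ± 0.15 on the log2 scale (SE; edgeR adjusted p = 0.000589), but the groups overlapped and the 16 libraries fitted with the experiment as a term gave no call. SERPINF1 lies at chr17:1761959-1777574 on the plus strand (ENSG00000132386).

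PAPPA2 encodes pappalysin-2, a secreted metalloprotease that cleaves the insulin-like growth factor binding proteins IGFBP3 and IGFBP5. Its DMSO levels were 2.29, 9.24, 2.17 and 1.69 CPM in WT and 33.4, 37.8, 23.4 and 22.8 CPM in W329G. It had the largest difference among the 10 under DMSO, 7.63-fold in means, and WT replicate 2 stood apart from the other WT libraries. The 5-FU levels were 3.82, 14.7, 1.11 and 1.84 CPM in WT and 24.1, 20.75, 10.5 and 8.92 CPM in W329G. WT replicate 2 now lay within the W329G range, so the groups overlapped, although they did not within either experiment. The difference was 1.83 ± 0.51 on the log2 scale (SE; edgeR adjusted p = 0.0443), and it lost its call without W329G cells 1 (adjusted p = 0.280) or without W329G cells 2 (0.201). Its size rested on the WT lines, with 1.22 without WT cells 1 and 2.91 without WT cells 2 (edgeR adjusted p = 0.0114 and 0.00143). In experiment 1 alone it was 1.28 (0.395), and in experiment 2 alone 2.71 (0.0333). PAPPA2 spans chr1:176463171-176845605 on the plus strand (ENSG00000116183).

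EYA1 encodes a phosphatase and transcriptional coactivator that works with homeobox proteins in the development of kidney, ear and muscle. It was low in all groups, with 3.43, 2.69, 3.45 and 4.07 CPM in WT and 14.3, 6.02, 6.59 and 13.1 CPM in W329G under DMSO. Replicates 1 and 4 were again the high W329G libraries. Under 5-FU WT had 2.503, 2.81, 2.91 and 2.85 CPM, the tightest of all the groups (1.16-fold from lowest to highest), and W329G had 12.6, 5.94, 6.80 and 11.9 CPM. No library overlapped, and the difference was 1.79 ± 0.16 on the log2 scale (SE; edgeR adjusted p = 0.00048). EYA1 lies at chr8:71197433-71362232 on the minus strand (ENSG00000104313).

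PEG10 is expressed from the paternal copy and is known from the placenta and from liver cancer. WT libraries measured 19.2, 36.4, 59.1 and 23.7 CPM under DMSO and W329G libraries 5.99, 11.2, 9.74 and 6.25 CPM. All W329G libraries were lower. Under 5-FU WT had 9.04, 12.4, 34.0 and 10.7 CPM, with replicate 3 far above the others, and W329G had 7.35, 9.13, 10.8 and 5.69 CPM. The groups overlapped, and the difference of −1.19 ± 0.35 on the log2 scale missed the threshold (SE; edgeR adjusted p = 0.0552). The PEG10 difference passed in the fit of the 16 libraries with the replicate number as a block (−0.86, edgeR adjusted p = 0.0134, with 20.3% of all genes called). That block joins lines of the 2 genotypes that share only a number, and it counts the libraries of a line as separate. The difference also passed with DESeq2 on the line sums (19.2% of all genes called) and without the filter on low counts (edgeR adjusted p = 0.00281). It was −0.50 without WT cells 1 (0.128), −1.64 without WT cells 2 (0.00338, called) and −0.38 in experiment 1 alone (0.675). PEG10 lies at chr7:94656325-94669695 on the plus strand (ENSG00000242265).

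The response to 5-FU was read within each genotype, from DMSO to 5-FU, over the 16 libraries with the experiment as a term. These contrasts share the DMSO libraries that chose the genes. A gene chosen for a high DMSO level in 1 genotype is more likely to read lower in other libraries of that genotype. One chosen for a low level is more likely to read higher. Changes in that direction (PEG10, ROR1 and SPTAN1 in WT, PAPPA2 in W329G) are given without a p, and nothing is read from a call among them. In WT cells F2R rose, by 1.30 ± 0.31 on the log2 scale (SE; edgeR adjusted p = 0.0158), the only call among the 10, where 8.8% of all 16301 genes were called (3.55% higher and 5.25% lower). As said above, the 5-FU values of F2R may have had a part in its choice. Its 4 paired changes in WT were 1.76, 1.38, 1.17 and 1.08. The call was lost without WT replicate 2 (adjusted p = 0.0695) or replicate 4 (0.0514), without the experiment term (0.115) and within experiment 1 (0.205) or experiment 2 (0.357) alone. In W329G cells the paired changes of F2R were 0.01, 0.11, −0.09 and −0.05, all near 0.

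Because DMSO and 5-FU libraries of a line share the cells, each line within each experiment was also fitted as a block. Its p-values measure the spread between the 4 pairs of a genotype, which come from 2 lines. This fit called 6 of the 10 genes in WT (24.9% of all genes). F2R (1.35, edgeR adjusted p = 2.57e-06), PRAG1 (0.53, 0.00612) and JUP (0.45, 0.0132) were higher after 5-FU. The other 3 calls lay in the direction that the choice favours, with SPTAN1 at 0.47, PEG10 at −1.14 and ROR1 at −0.83. Without the block, PRAG1 was at 0.54 ± 0.18 (edgeR adjusted p = 0.0804), PEG10 at −1.09 ± 0.40 and ROR1 at −0.87 ± 0.64. PEG10 was lower after 5-FU in each WT pair, with changes of −1.08, −1.55, −0.79 and −1.14, and ROR1 was lower by a like amount in each, with −0.83, −0.81, −0.72 and −0.95. The remaining 4, CLEC2B, SERPINF1, EYA1 and PAPPA2, were called in neither fit.

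In W329G cells none of the 10 genes was called without the block, where 0.791% of all genes were (0.196% higher and 0.595% lower). PAPPA2 was at −1.01 ± 0.44, in the direction that the choice favours, and DESeq2 called 0 of 10 (3.5% of all genes). With the block, 2 genes were called, ROR1 (−0.95, edgeR adjusted p = 0.00059) and PAPPA2 (−0.96), both lower after 5-FU, where 11% of all genes were called. The PAPPA2 call lay in the direction that the choice favours. ROR1 was lower in every W329G pair, with −1.40, −0.76, −0.68 and −0.84, much as in WT. PAPPA2 was lower in every W329G pair too, with −0.47, −0.87, −1.15 and −1.35, whereas its WT changes were 0.73, 0.67, −0.94 and 0.11. PEG10 changed in W329G by 0.29, −0.29, 0.15 and −0.14. The difference of the 2 responses, W329G minus WT, was −1.30 for F2R, −1.28 for PAPPA2 and 1.07 for PEG10 on the log2 scale. It holds the DMSO difference that chose the genes and was not tested.

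**Figure D3:**
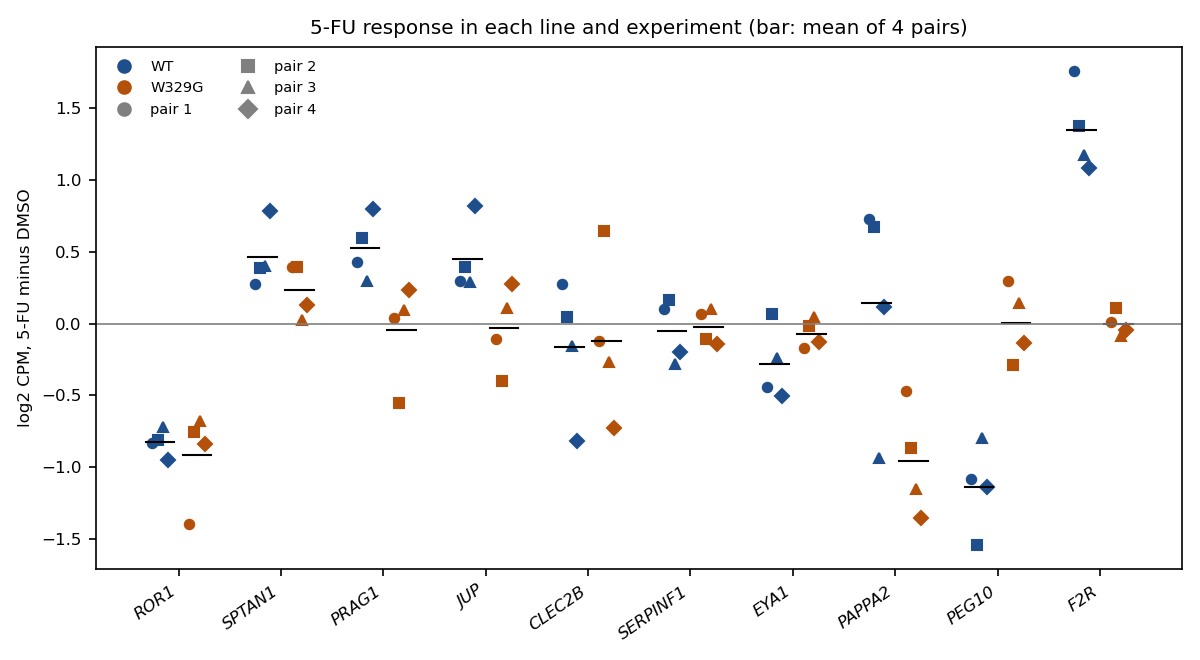
Change in log2 CPM from DMSO to 5-FU for each gene in each of the 4 line and experiment pairs, WT in blue and W329G in orange, with a bar at the mean of 4 pairs. The F2R pairs lie between 1.08 and 1.76 in WT and between −0.09 and 0.11 in W329G, and the ROR1 pairs are below 0 in both genotypes.

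The 2 lines of a genotype differed from each other for many of these genes, and the order of cells 1 and cells 2 turned between the experiments in 36 of 40 combinations of gene, genotype and treatment. It turned for 9 of 10 genes in WT DMSO, 8 in WT 5-FU, 10 in W329G DMSO and 9 in W329G 5-FU, where among all genes it turned for 54.1, 61.6, 72.5 and 73.6%. ROR1 was 5.09 times higher in cells 1 of WT DMSO in experiment 1 and 5.07 times higher in cells 2 in experiment 2. SERPINF1 was 3.53 times higher in cells 2 of W329G DMSO in experiment 1 and 4.53 times higher in cells 1 in experiment 2. SPTAN1 and EYA1 in W329G turned the other way from SERPINF1, with cells 1 higher in experiment 1 and cells 2 in experiment 2 in both treatments. PAPPA2 differed little between the W329G lines, by 1.03 to 1.18 times.

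Over the 8 differences between cells 2 and cells 1 (2 genotypes, 2 treatments, 2 experiments), SPTAN1 and EYA1 moved together (r = 0.95), as did SERPINF1 and JUP (0.93) and F2R and PEG10 (0.85). Here r is the Pearson correlation of log2 CPM over the 16 libraries, with the mean of each group within each experiment taken off. The 8 differences thus enter it without their own mean taken off. ROR1 moved against F2R (−0.95) and PEG10 (−0.93), and EYA1 against SERPINF1 (−0.94). These are descriptions over n = 8 differences that share lines and libraries.

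**Figure D4:**
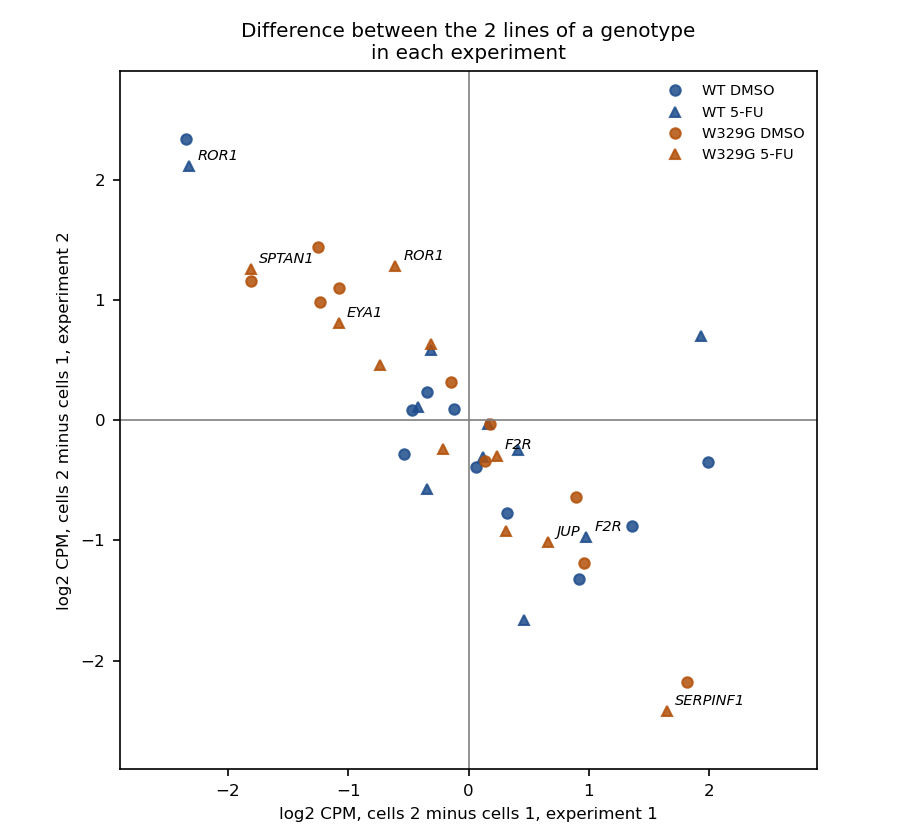
Difference between cells 2 and cells 1 of a genotype in log2 CPM, experiment 1 on the horizontal axis and experiment 2 on the vertical axis, with 1 point per gene and group and with genotype by colour and treatment by shape. In 36 of 40 cases the points fall in the quadrants where the 2 experiments have opposite signs.

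The pathway around each gene was read from lists of its partners and relatives, leaving out the 10 genes themselves. Of 161 genes tested from the 10 lists, 17 were higher and 17 lower in W329G under 5-FU, 21.1% against 14.4% of all genes. With the cell numbers exchanged, 3 of the 161 were called, CLEC7A, EPB41L3 and IGFBP7 (1.86% against 1.28%).

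In the list of insulin-like growth factor (IGF) and pappalysin genes, 1 of 17 was higher and 3 were lower, with a median of −0.03 on the log2 scale. IGFBP5, a binding protein that PAPPA2 is known to cleave, was at 1108 ± 907 CPM in WT and 255.7 ± 117.3 in W329G under 5-FU (SD, n = 4; −1.93 ± 0.16, edgeR adjusted p = 0.000359). PAPPA, the paralog of PAPPA2, went the other way from PAPPA2, with −1.90 ± 0.30 (edgeR adjusted p = 0.00475), and it rose in WT cells after 5-FU by 1.34 (edgeR adjusted p = 0.0311). IGFBP7 was lower (−1.66, adjusted p = 0.00904) and the insulin receptor gene INSR higher (0.75, adjusted p = 0.0258).

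In the thrombin receptor list, 1 of 20 genes was higher and 3 lower, with a median of 0.14. F2RL2, the receptor PAR3, was lower in W329G under 5-FU (−1.08, edgeR adjusted p = 0.0319), like F2R. The endothelial protein C receptor gene PROCR (−1.25, 0.00702) and the tissue factor gene F3 (−0.73, 0.0107) were lower too, and the G protein gene GNAQ was higher (0.81, 0.0146). F2RL1, the receptor PAR2, was at 0.24 (adjusted p = 0.331) and rose in WT cells after 5-FU by 0.69 (adjusted p = 0.0093).

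Among the spectrin and ankyrin genes 5 of 17 were higher and 4 lower, 52.9% of the list, with a median of 0.16. EPB41L3, a protein 4.1 family member that links the skeleton to membrane proteins, was higher (1.26 ± 0.16, edgeR adjusted p = 0.002), and so was the adducin gene ADD2 (1.56, 0.00765). The beta spectrin gene SPTBN4 (−0.85, 0.013) and the ankyrin gene ANK3 (−0.68, 0.0185) were lower. SPTBN1, the main partner chain of SPTAN1, was at 341 ± 6.81 CPM in WT and 381 ± 15.4 in W329G under 5-FU (SD, n = 4; 0.16, edgeR adjusted p = 0.341).

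In the noncanonical WNT list 2 of 18 genes were higher and 2 lower in edgeR, with a median of 0.22, while DESeq2 called 6 higher and 3 lower (50.0% of the list, where DESeq2 called 19.2% of all genes). The ligand gene WNT5B was lower in W329G (−2.11 ± 0.25, edgeR adjusted p = 0.00132), and ROR2, the closest relative of ROR1, was at 0.51 (adjusted p = 0.0649). Of the desmosome and adherens genes 1 of 19 was higher, the transcription factor gene LEF1 (0.98, 0.0221), and 1 lower, the plakophilin gene PKP1, which was under 1 CPM in every library (−2.58, 0.0493). CTNNB1, beta-catenin, was at −0.68 (adjusted p = 0.0601). Of the PRAG1 partners 1 of 12 was called, the adaptor gene SHC1 (−0.63, 0.018), and PEAK1 was at 0.08 (0.738). The medians of these latter 2 lists were −0.07 and −0.10.

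Of 8 tested lectin genes of the natural killer complex, CLEC7A (1.86, edgeR adjusted p = 0.0164) and KLRD1 (0.98, 0.0221) were higher and none was lower, with a median of 0.79. The near relative CLEC2D was at 0.07 (0.854). In the list of serpins and PEDF receptors 3 of 16 were higher and 2 lower, with a median of −0.25. The candidate PEDF receptor genes LRP6 (0.68, 0.00564) and PLXDC2 (0.92, 0.0135) were higher in W329G, where SERPINF1 itself was lower. SERPINB5 (−3.08, 0.00174) was among the lower genes, and SERPINF2 was at −1.33 (0.0574). Of the imprinted and retrotransposon-derived genes 2 of 21 were higher, PEG3 (0.67, 0.0106) and PPP1R9A (0.44, 0.0434), and 1 lower, RTL8C (−0.44, 0.0349), with a median of −0.02. RTL8C has close copies, between which reads can be divided uncertainly. SGCE, which shares an imprinted promoter region with PEG10, was at 0.23 (0.252). Of the 13 tested genes of the EYA network, which are its paralogs and its homeobox, DACH and PAX partners, edgeR called 0, with 2 at an unadjusted p under 0.05, and DESeq2 called 0. Their median was 0.16.

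Genes near the members were counted as a feature that the choice had not used. Of 117 tested genes with a midpoint within 500 kb of a member, 18 were higher and 10 lower in W329G under 5-FU, 23.9% against 14.4% of all genes. With the cell numbers exchanged, 3 of 116 were called, CLEC7A, KRT13 and SLC43A2 (2.59% against 1.28%). By locus, this exchange left 0 of 34 called around SPTAN1, 1 of 9 around CLEC2B, 1 of 28 around JUP and 1 of 19 around SERPINF1. As labelled, the edgeR shares were 26.5% around SPTAN1, 44.4% around CLEC2B and 17.2% around JUP. Around SPTAN1, which was higher, 9 of 34 neighbours were higher and 0 lower in edgeR (DESeq2 11 and 1), among them DYNC2I2 (1.06, adjusted p = 0.00116) and the dynamin gene DNM1 (0.90, 0.00144). Around CLEC2B, also higher, 4 of 9 were higher and 0 lower in edgeR and in DESeq2: the autophagy gene GABARAPL1 (1.09, 0.00141), DDX12P (1.24, 0.00252), CLEC7A and KLRD1. DDX12P is a near copy of DDX11, so reads may be shared between them. Around JUP, which was lower, 5 of 29 were lower and 0 higher in edgeR and in DESeq2, a share near the 14.4% of all genes in edgeR. Among the 5 were the keratin genes KRT13 (−5.23, 0.000558) and KRT17 (−1.35, 0.00915). KRT17 has near-identical pseudogenes. KRT13 averaged 2.79 CPM in WT 5-FU, with libraries from 0.0452 to 6.15 CPM, and under 1 CPM in the other groups. It was at −5.48 in experiment 1 alone and was too low to be fitted in experiment 2 alone. Around SERPINF1, which was lower, 2 of 19 were higher and 2 lower in edgeR (DESeq2 2 and 4). SLC43A2 was lower (−1.13, 0.000982) and SMYD4 higher (0.65, 0.00908). PGM1 beside ROR1 was lower (−0.82, 0.0029), and BRINP2 beside PAPPA2 was lower (−1.95, 0.0498). Of the 4 tested neighbours of PEG10, edgeR called 1, PPP1R9A, which was higher (0.44, 0.0434). Of the 8 neighbours of F2R, 2 were higher, ZBED3 (0.90, 0.0182) and SV2C (2.22, 0.0305), and 1 was lower, F2RL2, whose values are given with the thrombin receptors. SV2C and BRINP2 averaged under 1 CPM in every group. None of the 4 neighbours of PRAG1 or the 2 of EYA1 was called by edgeR or DESeq2, with 2 and 0 at an unadjusted p under 0.05.

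For each member the gene with the most similar levels was sought among 11249 genes, by the Pearson correlation of log2 CPM over the 16 libraries after the experiment means were taken off. These values describe 16 libraries that share lines and groups. The genotype difference in the DMSO libraries that chose the members enters r, and taking the highest of 11249 genes raises it. The closest were FOXP1 for ROR1 (r = 0.97), EMX2 for SPTAN1 (0.94), NAXD for PRAG1 (0.96), GPSM3 for JUP (0.96), PAM for CLEC2B (0.96), PCDHB6 for SERPINF1 (0.96), HAUS2 for EYA1 (0.96), COL3A1 for PAPPA2 (0.95), SMARCD2 for PEG10 (0.93) and TNFSF9 for F2R (0.97). The second closest were QRICH1 (0.95), BCL2L13 (0.93), MTMR14 (0.96), RTN2 (0.96), EYA1 (0.96), NOS3 (0.96), CNTNAP3 (0.96), TAOK1 (0.95), SLC44A2 (0.89) and AMZ2 (0.94), in the same order. EYA1, itself 1 of the 10, was the second closest gene to CLEC2B. Both were chosen from the DMSO libraries, where both were higher in W329G, so nothing is read from this.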

How the data were processed

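Poly-A RNA libraries were made with the Illumina TruSeq RNA kit, per the labels' protocols. The deposited files hold raw counts per gene in each library. All 26 experiment 2 values with at least 7 digits have 0 as their last digit and were thus rounded. Aligner, counter and strand setting were not given in the sources used here. Coordinates are those of the experiment 1 files: 96.3% of 56898 genes have the start and end of GRCh38 in GENCODE 29, although the submitters' processing notes name hg19. The 57500 genes of experiment 1 and 28890 of experiment 2 were joined by symbol, 28443 in all, leaving out 14 ambiguous symbols. Joined genes held 97.64 to 98.63% of the counts.

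Genotype comparisons used counts summed per line and treatment over both experiments (8 sums), and 5-FU responses used 16 libraries with the experiment as a term. Tests were edgeR 4.0.16 quasi-likelihood tests in R 4.3.3, with TMM scaling, filterByExpr and Benjamini-Hochberg adjustment over all genes at 0.05. They were also run on simulated counts, drawn independently for each sum or library, with no shared or mixed lines. That run cannot show whether the p-values hold for the spread between lines. Alternatives used DESeq2 1.42.0, limma 3.58.1 voom, each experiment alone, left-out lines or libraries, a replicate block, no low-count filter and exchanged cell numbers. Leaving out mitochondrially encoded genes was chosen after seeing the data. Intervals for sampling of reads are not given, since the spread between lines is wider.

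Pairing was taken from the labels, where DMSO and 5-FU libraries of a line share a cell number. Their line differences correlated within an experiment (r = 0.487 to 0.708 over 4 comparisons). Between experiments the correlation within a treatment ran from −0.569 to −0.189.

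The 10 genes, the lists and the comparisons were chosen with earlier results of these data known. Named genes are the 10 members, up to 4 called genes per list with close relatives, up to 2 called neighbours per member, and the 2 most similar genes of at least 5 CPM on average. The values of 1 listed gene are not reported here.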

Additional observations from a re-analysis of the deposited data

Results flagged for a closer look

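In 40 groups of 4 libraries (10 genes in 4 groups), the distance from the most extreme library to its nearest neighbour, as a share of the group's range, was above the 95% critical value of Dixon's test in 2, where chance gives about 1 in 20. PAPPA2 in WT DMSO cells had a share of 0.921, from replicate 2 at 9.24 CPM. PEG10 in WT 5-FU cells had a share of 0.865, from replicate 3 at 34.0 CPM.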

How the results depend on the processing

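Under 5-FU, the sign of the genotype difference of all 10 genes held in all 14 alternatives. The count of all genes called, 2504, was 419 in experiment 1 alone, 30 in experiment 2 alone and 221 with cell numbers exchanged, was 345 without W329G cells 1 and 180 without W329G cells 2, and rose to 2951 without WT cells 2. The 9 members called became 3, 1 and 1 in the first 3 of these and 8 to 10 without a line. The 1435 genes called for the WT response were 204 in experiment 1, 0 in experiment 2 (1746 at an unadjusted p under 0.05), 4054 with lines as a replicate block and 399 without the experiment term, and 662 to 1177 without 1 replicate. The 1 member called became 2 with DESeq2, 0 in experiment 1 (2 unadjusted), 0 in experiment 2 (1 unadjusted), 6 with the replicate block and 0 without the experiment term (edgeR), and 0 to 2 without 1 replicate. The 129 genes called for the W329G response were 571 with DESeq2, 0 in each experiment alone in edgeR (1101 and 879 unadjusted), 1798 with the replicate block and 13 without the experiment term, and 11 to 22 without 1 replicate. The 0 members called became 2 with the replicate block. In the genotype comparison the replicate block over 16 libraries called 10 of 10 members and 3317 genes. This block joins lines of the 2 genotypes by number only and counts the libraries of a line as separate. Apart from the calls given with the results it changed none.

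Responses near 0 changed sign without being called. In WT these were CLEC2B, at 0.18 in experiment 1 and −0.31 to 0.047 without 1 replicate, SERPINF1, at 0.14 in experiment 1 and −0.13 to 0.019 without 1 replicate, and PAPPA2, at −0.40 in experiment 2 and −0.027 to 0.54 without 1 replicate. In W329G, PRAG1 was at 0.16 in experiment 2 and −0.11 to 0.11 without 1 replicate, JUP at 0.15 and −0.16 to 0.060 likewise, and CLEC2B at 0.16 in experiment 1 and −0.41 to 0.047 without 1 replicate. SERPINF1 was at 0.0055 with DESeq2, 0.040 in experiment 2 and −0.094 to 0.039 without 1 replicate. PEG10 was at 0.026 in experiment 2, 0.0063 with the replicate block and −0.10 to 0.12 without 1 replicate, and F2R at −0.083, −0.0030 and −0.051 to 0.032 in the same settings. Fewer libraries enter the fits of 1 experiment, and for the other settings the cause was not tested.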
